A study of Mus musculus with 3 samples.

Results

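The genes described here are 38 genes of DNA replication and S phase, taken by symbol from the 31053 genes of a single-cell count matrix of mouse bone marrow cells. They comprise 3 regulators of the G1 to S transition, 9 genes of origin licensing, 11 of helicase activation and the replication fork, 5 of nucleotide supply, 6 of checkpoint and repair, and 4 of chromatin and histone supply. The cells were sorted as Lin-Sca1+ckit+ (LSK), the compartment that holds hematopoietic stem cells and multipotent progenitors. The donors were 2 Helios-deficient mice, as labelled, and 2 wild-type (WT) mice. The labels give no age, strain, sex or allele for either genotype. Helios, the product of Ikzf2, is a DNA-binding zinc finger protein related to Ikaros. Each mouse's cells had a separate hashtag antibody and were stained with tagged antibodies to CD41, CD48, CD150 and CD135 (Flt3), and 2500 cells per mouse were pooled for 1 droplet run.

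DNA replication starts at origins that are licensed in G1, when Cdc6 and Cdt1 help to load the ring-shaped MCM helicase, and geminin, the product of Gmnn, blocks Cdt1 afterwards. At S phase entry Cdc45 and the GINS complex activate the helicase, primase and DNA polymerase alpha prime the new strands, and PCNA, loaded by the RFC clamp loader, holds the polymerases and nucleases on the DNA. Most of these genes are known targets of E2F transcription factors, and cyclin E drives their release from repression. Long-term stem cells, which are CD150-positive and CD48-negative, are known to divide rarely, while CD48-positive progenitors cycle more often.

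Because the members moved together along the CD48 surface protein, as described further on, their promoters are shown with the letters of the E2F site. The windows were RefSeq sequences (GRCm38.p6) of 250 bases before to 50 bases after a gene start, and 30 members matched 36 windows. The letters searched on both strands were TTTCCCGC, TTTCGCGC, TTTGCCGC and TTTGGCGC. They stood in 12 of the 36 member windows (33.3%), in 16 of 50 windows of other replication genes (32.0%), in 2 of 47 windows of G2 and M phase genes (4.26%) and in 744 of all 32851 windows (2.26%). The shorter letters TTTGAA or TTCGAA, those of the cell cycle homology region known from G2 and M phase promoters, stood in 6 member windows (16.7%), in 37 of the 47 G2 and M phase windows (78.7%) and in 19.2% of all windows. None of the E2F letters contains the shorter ones on either strand, and a match is a description of the window, not a bound site.

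Stretches of 48 bases from 5 of the matching windows are printed to show how the letters sit before the window's gene start. They belong to genes of 3 subunits of the MCM helicase, of the catalytic subunit of DNA polymerase alpha and of the chromatin remodeler Hells. They lie at chr8:75109340-75109387 (Mcm5, plus strand), chr1:128359725-128359772 (Mcm6, minus strand), chr5:138172021-138172068 (Mcm7, minus strand), chrX:93632266-93632313 (Pola1, minus strand) and chr19:38930908-38930955 (Hells, plus strand). Each reads 5′ to 3′ along the gene, and the capitals mark the E2F letters, which in Mcm7 and Pola1 run as their reverse complement and in Mcm5 form 2 overlapping matches on opposite strands.
Mcm5: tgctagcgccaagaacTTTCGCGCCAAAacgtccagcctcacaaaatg
Mcm6: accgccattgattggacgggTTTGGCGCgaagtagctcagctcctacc
Mcm7: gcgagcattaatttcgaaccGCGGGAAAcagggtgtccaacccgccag
Pola1: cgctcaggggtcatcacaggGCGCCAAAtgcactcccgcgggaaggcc
Hells: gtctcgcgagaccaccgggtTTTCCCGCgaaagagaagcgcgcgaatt
In each stretch the E2F match nearest the window's start begins 149, 47, 165, 138 and 62 bases before it, in that order. For Mcm7, Pola1 and Hells the annotated gene span begins farther upstream than this start, so the printed stretch lies inside the span.

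The authors kept 3470 of 4108 barcodes, with 557 and 824 cells in the mice labelled Helios-deficient and 1175 and 914 in the WT mice. Total unique molecular identifiers (UMIs, counts of captured transcripts) were 5729987, 8424677, 10317599 and 8364109 in the same order. All 7 LSK surface genes (Kit, Ly6a, Cd34, Flt3, Slamf1, Cd48 and Ptprc) were detected, at a sum of 1009 to 1167 CPM per mouse (counts scaled to a total of 1000000 UMIs). Cd3e and Ly6g were at 0 among 8 mature lineage genes. The sum of 5 B cell genes was 73.5 and 1007 CPM in Helios-deficient mice, against 4092 and 77.0 CPM in WT mice, and 6 macrophage genes stood at 8.34 to 27.4 CPM. Ikzf2 was not lower in the mice labelled Helios-deficient, at 73.6 and 82.7 CPM against 70.6 and 67.7 CPM in WT. The labels do not say which stretch of the gene is missing, so end-tagged counts neither check nor contradict the genotype label.

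Cells were ordered by their CD48 tag and divided into classes of 1157 CD48-low, 1156 CD48-mid and 1157 CD48-high cells, which no member transcript entered. Nearly the whole replication program was higher in CD48-high cells. Among the genes tested by edgeR's quasi-likelihood test on UMI sums with the mouse as a block, 37 of the 38 members were higher in CD48-high than in CD48-low cells at an adjusted p under 0.05, and 0 were lower. Over all 9904 genes tested, 19.5% were called higher, 17.4% lower and 36.9% in either direction. The median log2 fold change was 0.86 over the members and −0.0069 over all genes tested. Every member stood higher in the CD48-high class in 4 of 4 mice, and for 37 members the 4 CD48-high values lay above all 4 CD48-low values. In 24 members each mouse also had its CD48-mid value between the other two. These counts over mice were not made over all genes tested.

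**Figure D1:**
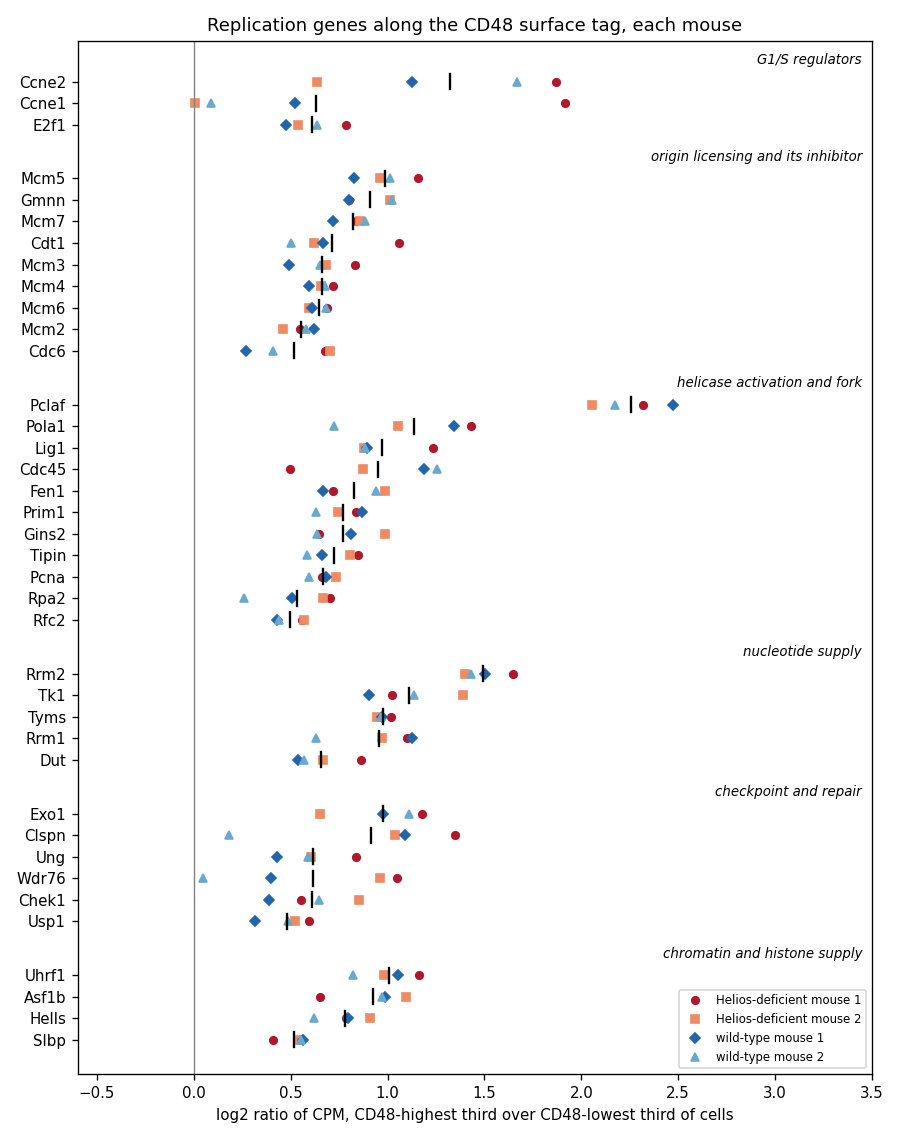
Log2 ratio of CPM in the highest over the lowest CD48 class of cells (x axis) for the 38 members (y axis, grouped by role), with 1 symbol per mouse and a bar at the mean of the 4 mice. All symbols lie at or above 0, and those of Pclaf lie farthest to the right.

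Among the genes of the fork, Pclaf (ENSMUSG00000040204, a PCNA-binding factor) differed most. It had 330 and 300.6 CPM in CD48-high cells of the Helios-deficient mice and 274 and 262 CPM in those of the WT mice. In CD48-low cells it had 66.1 and 72.3 CPM in Helios-deficient mice, against 49.4 and 58.1 CPM in the WT mice. The classes did not overlap, and its log2 fold change was 2.33 (SE 0.07, edgeR adjusted p = 7.6e-71). Pola1, the catalytic subunit of DNA polymerase alpha, stood at 30.2 to 43.2 CPM in CD48-high cells and at 13.8 to 18.3 CPM in CD48-low cells. Its log2 fold change was 1.22 (SE 0.14, edgeR adjusted p = 1.1e-13). The other 9 fork genes were called as well. The smallest difference of the group was that of Rfc2, a clamp loader subunit and 1 of the 2 members with the most UMIs. It had 318 to 327 CPM in CD48-high cells and 215 to 240 CPM in CD48-low cells. The log2 fold change was 0.58 (SE 0.06, edgeR adjusted p = 5.3e-17).

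All 5 genes of nucleotide supply were higher in CD48-high cells. Rrm2, the regulated subunit of ribonucleotide reductase, had 134 and 122 CPM in CD48-high cells of the Helios-deficient mice and 106 and 98.4 CPM in those of the WT mice. Its CD48-low values were 42.7 and 46.1 CPM in Helios-deficient mice, against 37.4 and 36.5 CPM in the WT mice. The log2 fold change was 1.57 (SE 0.09, edgeR adjusted p = 1.3e-38), the second after Pclaf. Rrm1, the large subunit of the same enzyme, differed by 1.05 on the log2 scale, as did Tyms (thymidylate synthase). Tk1 (thymidine kinase) had at least 74.2 CPM in CD48-high cells of each mouse and at most 46.04 CPM in CD48-low cells. Dut, which removes dUTP from the nucleotide pool and had the most UMIs of all members, had a smaller difference of 0.73 (SE 0.06), at 355 to 451 CPM in CD48-high and 245 to 279 CPM in CD48-low cells.

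All 9 licensing genes passed as well, with log2 fold changes of 0.58 to 1.05. Mcm5 stood at the top, at 162 to 186 CPM in CD48-high cells and 80.8 to 91.7 CPM in CD48-low cells. The 6 MCM subunits Mcm2 to Mcm7, which form 1 ring, ranged in log2 fold change over 0.64, 0.73, 0.74, 1.05, 0.73 and 0.90 in numerical order. Cdc6, the helicase loader, was the lowest of the group at 0.58 (SE 0.13, edgeR adjusted p = 1.1e-04). Its values were 37.3 and 34.5 CPM in CD48-high cells of the Helios-deficient mice and 31.6 and 27.9 CPM in those of the WT mice. The CD48-low values were 23.4 and 21.2 CPM in Helios-deficient mice, against 26.2 and 21.0 CPM in the WT mice, so the classes did not overlap.

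Of the regulators of the G1 to S transition, the transcription factor gene E2f1 (0.67, SE 0.11) and Ccne2 passed and Ccne1 did not. Ccne2, a cyclin E gene, stood at 17.6 to 29.2 CPM in CD48-high cells, against 5.53 to 12.9 CPM in CD48-low cells of the 4 mice (log2 fold change 1.29, SE 0.18, edgeR adjusted p = 8.1e-10). Ccne1, the other cyclin E gene, was the exception among the 38. It had 12.6 and 10.4 CPM in CD48-high cells of the Helios-deficient mice and 6.98 and 9.40 CPM in those of the WT mice, and 3.34 to 10.4 CPM in CD48-low cells. The classes overlapped, and the log2 fold change of 0.52 (SE 0.24) had an edgeR adjusted p of 0.078. With only 253 UMIs in all, Ccne1 also had the fewest counts. The genes of checkpoint and repair ranged from 0.55 (Usp1, a deubiquitinase of PCNA, at 107 to 127 CPM in CD48-high and 78.0 to 86.1 CPM in CD48-low cells) to 1.02 (Exo1, an exonuclease). Those of chromatin ranged from 0.61 (Slbp, the histone mRNA binding protein) to 1.08 (Uhrf1, which recruits maintenance DNA methylation).

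CD48-high cells also held more RNA, with a median of 11449 UMIs per cell against 6480 in CD48-low cells, and over the 3470 cells the CD48 tag count and the UMI count had a Spearman rho of 0.51, as a description. Stem cell marker genes (Procr, Hlf, Mecom, Fgd5, Mllt3, Ctnnal1 and Hoxb5) summed to 120 to 167 CPM in CD48-high and 444 to 499 CPM in CD48-low cells. With each cell thinned to 4000 UMIs, 36 of 37 testable members were still called higher, with a median log2 fold change of 1.09. The B cell genes reached 68.4 to 9098 CPM in CD48-high cells of the 4 mice and 74.1 to 78.2 CPM in CD48-low cells. The part of cell size and of these transcripts in the unthinned difference was not tested.

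To count cells rather than transcripts, each kept cell was thinned at random to 4000 UMIs, which left out 82 shallower cells, and a cell with at least 20 UMIs over the 38 genes was called replicating. The number is a point on a continuous range with no gap: 48 cells had 19 member UMIs and 51 cells had 20. In CD48-low, CD48-mid and CD48-high cells the mean replicating share of the 4 mice was 15.4% ± 0.492, 24.2% ± 5.54 and 44.2% ± 6.45 (SD, n = 4). Within replicating cells the mean number of member UMIs was 29.4 ± 0.835, 29.8 ± 0.877 and 30.3 ± 0.651 in that order, where the limit of 20 bounds the class from below. Among the other cells it was 5.57 ± 0.188, 6.77 ± 0.458 and 9.59 ± 1.51. Since the same UMIs divide the cells and are averaged here, these means do not locate the CD48 difference on either side of the limit.

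**Figure D2:**
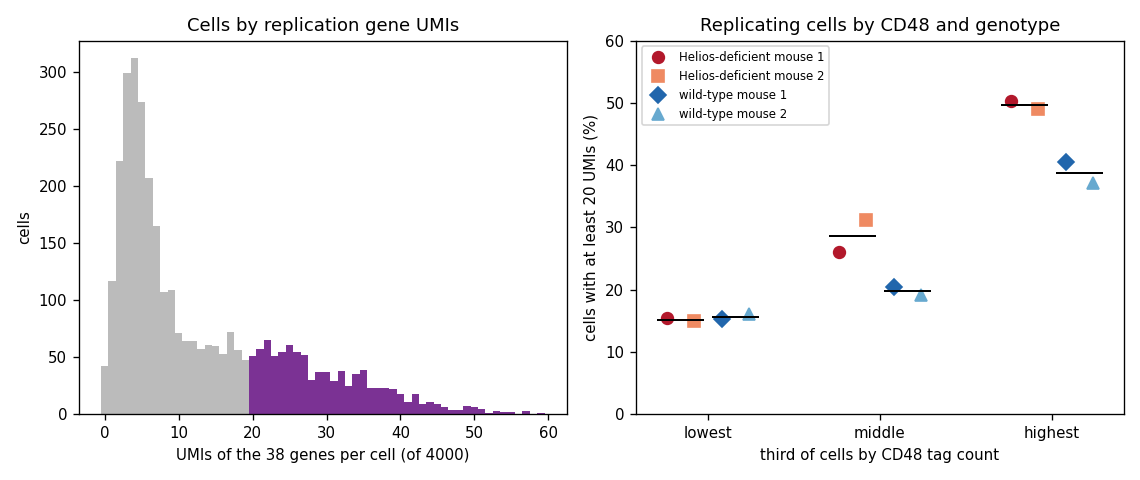
Left, number of cells (y axis) by UMIs of the 38 genes among 4000 per cell (x axis), with replicating cells (at least 20) in purple. Right, replicating cells as a percent of the cells of each CD48 class (x axis, low to high), 1 symbol per mouse and a line at the mean of each genotype. In the highest class the Helios-deficient mice stand at 50.3% and 49.0% and the WT mice at 40.5% and 37.1%, and in the lowest class the 4 mice lie between 15.0% and 16.1%.

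A stem cell gate was set by surface tags alone as cells that were both CD48-low and in the equally sized CD150-high class. It held 67 and 111 cells of the Helios-deficient mice and 125 and 86 cells of the WT mice. Of the 38 members, 18 were lower in the gate than in all other cells by edgeR, beside 7.77% of the 10183 genes tested called lower, 8.58% higher and 16.4% in either direction, and 0 were higher. DESeq2 called 5 lower and 0 higher (3.76% of genes lower, 4.7% higher, 8.47% in either direction), and without WT mouse 2 edgeR called 11. The members' median log2 fold change was −0.27, against 0.0052 over all genes tested. By role, 8 of 9 licensing genes, 7 of 11 fork genes and 3 of 5 nucleotide genes fell. None of the 3 regulators, 6 checkpoint and repair genes and 4 chromatin genes passed the test, although the 4 chromatin genes had negative log2 fold changes, down to −0.35 for Asf1b (SE 0.13, edgeR adjusted p = 0.059). The difference between roles was not tested.

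Pclaf again moved most, with 103 and 95.1 CPM in gate cells of the Helios-deficient mice and 67.1 and 36.2 CPM in those of the WT mice. In the other cells it had 189 and 208 CPM in Helios-deficient mice, against 178 and 176 CPM in WT mice. Gate and other cells did not overlap, and the log2 fold change was −1.33 (SE 0.10, edgeR adjusted p = 5.3e-18). Pola1 differed by −0.71 (SE 0.19, edgeR adjusted p = 0.0032), Rrm2 by −0.69 (SE 0.12, edgeR adjusted p = 1.4e-06) and Cdc6 by −0.51 (SE 0.18, edgeR adjusted p = 0.038). Cdc6 had 28.1 and 17.8 CPM in gate cells of the Helios-deficient mice and 17.3 and 23.6 CPM in those of the WT mice, which overlapped the 23.5 to 32.9 CPM of the other cells. In 21 members the gate was the lower one in 4 of 4 mice, a count that was not made over all genes tested. The replicating share was 22.7% and 24.8% in gate cells of the Helios-deficient mice and 20.7% (24 of 116) and a lower 13 of 81 cells in those of the WT mice. It was 29.9% and 31.4% in the other cells of the Helios-deficient mice and 26.8% and 26.1% in those of the WT mice. The gate was the lower one in each mouse. The other cells include the CD48-high class, so the gate was also set beside the whole CD48-low class, of which it is a subset. The summed level of the 38 genes was 3778 and 3607 CPM in gate cells of the Helios-deficient mice and 3366 and 2889 CPM in those of the WT mice. In all CD48-low cells it was 3020 and 2954 CPM in Helios-deficient mice, against 2903 and 2860 CPM in WT mice, so the gate was the higher one in 4 of 4 mice. Its replicating share was above that of the CD48-low class (15.4% and 15.0% in Helios-deficient mice, 15.3% and 16.1% in WT mice) in 3 of 4 mice. This difference was not tested.

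The CD150 and CD135 tags went with much smaller differences than CD48. In CD150-high over CD150-low cells edgeR called 6 members higher and 0 lower, with a median log2 fold change of 0.10. Of the 10029 genes tested, 4.43% were called higher, 4.5% lower and 8.92% in either direction. The 6 were Asf1b, a histone chaperone (0.55, SE 0.09, edgeR adjusted p = 4.5e-06), Tk1 (0.38, SE 0.08), Rrm1 (0.24, SE 0.06), Lig1, the ligase that joins Okazaki fragments (0.21, SE 0.06), Dut (0.19, SE 0.04) and Slbp (0.13, SE 0.04). None of the licensing genes was among them. DESeq2 called 1 member (2.07% of genes in either direction), and edgeR called 3 without Helios-deficient mouse 2. In CD135-high over CD135-low cells edgeR called 4 members higher and 0 lower, with a median of 0.16. Of the 10013 genes tested, 1.27% were called higher, 0.919% lower and 2.19% in either direction. The 4 were Exo1 (0.57, SE 0.15), Rrm2 (0.31, SE 0.08), Mcm6 (0.22, SE 0.04) and Mcm7 (0.21, SE 0.05). DESeq2 called 0 members (0.24% of genes), with 6 under an unadjusted p of 0.05, as were 242 of the 10013 genes. By edgeR 2 were called without Helios-deficient mouse 1 and 1 without WT mouse 1. Rrm2 was not called for CD150 (0.16, SE 0.08) and Tk1 was not called for CD135 (0.28, SE 0.08), and the difference between the tags was not tested. Both sets of calls turned round when each tag was expressed as a share of the cell's 4 tags: the medians were then −0.60 for CD150 and −0.76 for CD135, where a share falls by construction as the CD48 count rises.

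By transcript state, the members stood higher in myeloid than in lymphoid cells. Cells with at least 3 UMIs of Mpo, the myeloperoxidase gene of early myeloid cells, were set against cells with at least 2 UMIs of Dntt, the terminal transferase gene of early lymphoid cells. Cells past both limits, or in the megakaryocyte or erythroid state, were left out. This was a rule chosen after seeing the data because the stricter one on Elane (neutrophil elastase) held only 21 myeloid cells. The Mpo rule held 293 myeloid and 421 lymphoid cells. edgeR called 31 of 37 testable members higher in the myeloid cells (11.4% of 7669 genes called higher, 10.1% lower, 21.6% in either direction) and 0 lower, with a median log2 fold change of 0.53. Clspn, an adaptor of the checkpoint kinase Chek1, had the largest difference (log2 fold change 1.3, SE 0.22, edgeR adjusted p = 8e-06). The 5 genes of nucleotide supply were all higher, with a median of 1.03, among them Tk1 (1.12, SE 0.13), Rrm2 (1.11, SE 0.11) and Tyms (1.03, SE 0.10). The other 6 testable members were not called, among them Mcm6 (0.15, SE 0.12), Cdc6 (0.17, SE 0.20) and Ung, a uracil DNA glycosylase (0.17, SE 0.11). Median depth was 12661 UMIs in the myeloid and 8127 in the lymphoid cells. Under the Elane rule 6 of 35 testable members were called higher (Tk1, Rrm2, Asf1b, Cdc45, Pclaf and Tyms, at 1.64, 1.49, 1.38, 1.24, 1.17 and 0.92), beside 5.44% of 5312 genes called higher, 8.89% lower and 14.3% in either direction. DESeq2 called 1 (2.01% of genes higher, 3.48% lower, 5.5% in either direction). Without Helios-deficient mouse 2 edgeR called 0, with 6 members under an unadjusted p of 0.05, as were 708 of 4864 genes. Without WT mouse 2 it called 12.

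The replicating share of the Mpo-defined myeloid cells was 59.6% and 51.4% in Helios-deficient mice, against 45.5% and 40.3% in the WT mice. That of the lymphoid cells was 27.9% and 33.0% in Helios-deficient mice, against 19.6% and 17.2% in the WT mice. Myeloid cells were the higher in each mouse, and the genotypes did not overlap in either state. In 187 cells with at least 3 UMIs over Pf4, Itga2b, Gp1bb and Gp9, the megakaryocyte genes, the share was 32.3% and 41.4% in Helios-deficient mice, against 48.1% and 43.2% in the WT mice. This is the reverse order of the genotypes, and the difference between states was not tested. In cells of the state defined by Flt3 alone 26 of 110 and 35 of 164 cells were replicating in Helios-deficient mice, against 77 of 343 and 53 of 241 in WT mice, with overlapping shares. The smallest two-sided p of an exact permutation test over 2 mice against 2 is 0.333, so no share could pass between genotypes, and the spread here is that between mice of 1 run.

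Within replicating cells the members were ordered by the UMIs of 49 G2 and M phase genes, which accumulate as a cell nears division. For each member the replicating cells were the top class by the UMIs of the other 37 members (779 to 846 cells), so that a gene did not choose its own cells, and these were divided into 4 classes of about equal size from Q1 (fewest G2 and M UMIs) to Q4 (most). The ratio of Q4 over Q1 was taken in each mouse with a pseudocount of 0.5 UMIs, and is a description with no test. This division was chosen after seeing the data, because the planned class with at most 1 G2 and M UMI held only 12 to 22 cells. Of the 38 members, 28 had a positive mean ratio (late) and 10 a negative one (early), 17 were positive in 4 of 4 mice and 6 negative in 4 of 4. The sign was shared with the planned rule for 33. These counts were not made over other genes, so the share of genes with a positive ratio in such cells is not known. Late and early are therefore relative to a ratio of 0 only.

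The early end held Ung, which removes uracil from DNA, then Hells and subunits of the MCM helicase. Ung had 64.1 and 20.2 CPM in Q4 cells of the Helios-deficient mice and 83.3 and 27.0 CPM in those of the WT mice. In Q1 cells it had 250 and 241 CPM in Helios-deficient mice, against 253 and 264 CPM in the WT mice. Q1 and Q4 did not overlap, and the mean log2 ratio was −2.52 ± 0.91 (SD, n = 4). Hells followed at −0.67 ± 0.38, then Mcm3 at −0.47 ± 0.27, Mcm2 at −0.43 ± 0.29 and Mcm6 at −0.40 ± 0.19. All 6 MCM subunits were negative on average under this division, and 4 of them (Mcm2, Mcm3, Mcm6 and Mcm7) in 4 of 4 mice. Under the planned rule, over all mice together, Mcm6 turned to 0.21 and Mcm5 to 0.085, and Mcm2, Mcm3, Mcm4 and Mcm7 were at −0.087, −0.36, −0.19 and −0.11, so the place of the helicase subunits depends on the division. Gmnn, the licensing inhibitor, lay on the late side at 0.56 ± 0.24, positive in 4 of 4 mice.

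The late end held Pclaf, nucleotide supply and a histone chaperone. Pclaf had 736 and 772 CPM in Q4 cells of the Helios-deficient mice and 884 and 836 CPM in those of the WT mice. In Q1 cells it had 5.68 and 50.9 CPM in Helios-deficient mice (1 and 11 UMIs), against 12 and 10 UMIs in WT mice. The mean log2 ratio was 4.72 ± 1.17 (SD, n = 4). Tk1 followed at 2.48 ± 0.88, Rrm2 at 2.33 ± 0.55 and Asf1b at 2.05 ± 0.89, all positive in 4 of 4 mice. Tyms (1.57 ± 0.12), Cdc45, the helicase activator (1.33 ± 0.08), and Rrm1 (0.90 ± 0.40) were late to a lesser degree. The planned rule gave −0.66 for Ung, −0.61 for Hells, 2.55 for Rrm2, 4.66 for Tk1 and 4.52 for Pclaf. Clspn (1.80) and Ccne1 (1.68) lay between Asf1b and Tyms, and the loader gene Cdc6 was on the late side at 0.53. All 5 nucleotide genes were positive, with a median of 1.57, while the 9 licensing genes had a median of −0.13 and the 11 fork genes one of 0.41. The 3 regulators had a median of 0.80, which is the value of Ccne2, with E2f1 at −0.35 and Ccne1 at 1.68. Under the planned rule Ccne1 stood at 1.41 and Ccne2 at 0.24 over all mice together, but at −0.86 and −0.48 as means of the mice. With 51 and 126 UMIs in all replicating cells, the place of these 2 cyclin E genes is not settled. Checkpoint and repair genes and chromatin genes had medians of 0.36 each. The highest of the classes was Q1 for 1 member, Q2 for 8, Q3 for 14 and Q4 for 15, a description without a test, and 15 members had mixed signs over the mice.

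**Figure D3:**
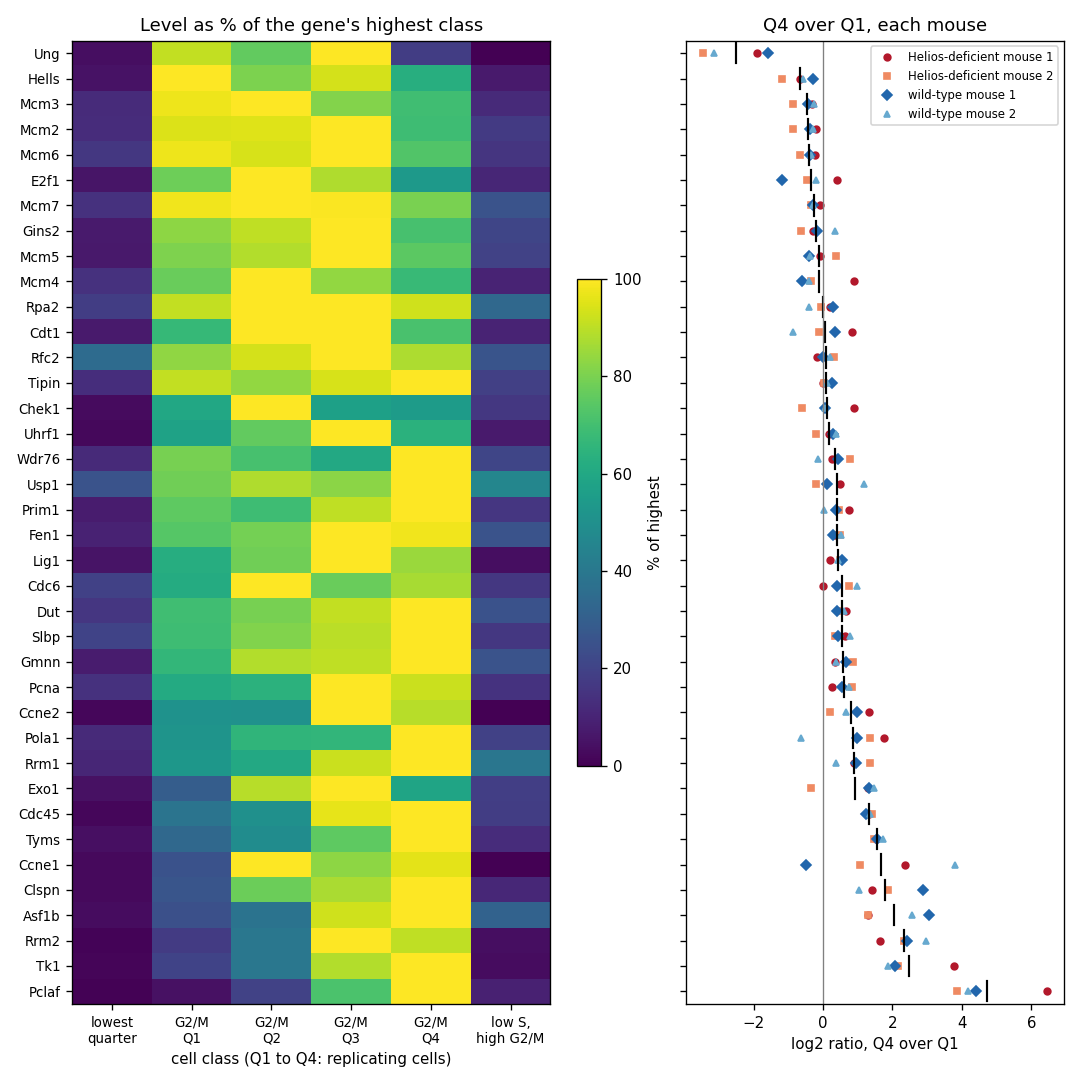
Left, level of each member (rows, early at the top) in 6 cell classes as a percent of its highest class: the lowest class by the other members, replicating cells Q1 to Q4 by G2 and M UMIs, and cells low in the members but high in G2 and M UMIs. Right, log2 ratio of Q4 over Q1 in each mouse, with a bar at the mean. Ung lies at −2.52 and Pclaf at 4.72. Rows are sorted by the mean of this ratio, so the bright cells move to the right down the rows by construction.

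Members also differed in how far their level in the top class by the other 37 members stood above that in the bottom class. Over all mice together Pclaf had 382 CPM in the top class and 5.52 CPM in the bottom class, a 69.3-fold ratio that rests on 22 UMIs in the bottom class. Rrm2 (52.2-fold) and Tk1 (46.2-fold) rest on 13 UMIs each, and Rrm2 had 0 of them in Helios-deficient mouse 1, so the order of these 3 is not settled by the counts. The narrowest ratios were those of Rfc2 (mean log2 1.41 ± 0.20), Usp1 (1.79 ± 0.16) and Slbp (2.05 ± 0.22, SD, n = 4). Rfc2 kept 164 CPM in the bottom class, against 427 CPM in the top class. With the 38 members ranked by the ratio of Q4 over Q1 and divided into 19 earlier and 19 later ones, the E2F letters stood in the windows of 7 of the 14 earlier members that had one, and of 5 of the 16 later ones, which was not tested.

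Between genotypes no member passed. edgeR called 0 of the 38 members (of 11592 genes 0.362% were called higher, 0.431% lower and 0.794% in either direction), and DESeq2 called 0 (0.302%). Unadjusted p was under 0.05 for 12 members by edgeR, as for 1202 of the 11592 genes, and for 4 members by DESeq2, as for 375 of these genes. The values leaned one way: 35 members had a positive log2 fold change, beside 49.9% of all genes tested. The members' median was 0.13, against −0.00029 over all genes tested. In 25 members both Helios-deficient mice lay above both WT mice, and in 2 the reverse, counts that were not made over all genes tested. The 38 genes together gave 4211 and 4268 CPM in Helios-deficient mice, against 3962 and 3891 CPM in WT mice. On simulated counts the same test recovered 82 of 100 genes changed 1.5-fold between genotypes, and changes of the size seen here are smaller. The changed genes were drawn from the more abundant ones, so the figure does not cover low members such as Ccne1. The simulated spread followed abundance and not each gene's own spread between mice.

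Tipin, a fork protection factor, had the smallest p. Its level was 193 and 184 CPM in Helios-deficient mice, against 163 and 149 CPM in the WT mice, without overlap. The log2 fold change was 0.27 (SE 0.07, edgeR adjusted p = 0.066). Lig1 had 123 and 129 CPM in Helios-deficient mice, against 112 and 102 CPM in the WT mice (log2 fold change 0.24, SE 0.07, edgeR adjusted p = 0.18). Fen1, the nuclease that trims Okazaki fragments, had 112 and 106 CPM in Helios-deficient mice, against 96.4 and 92.2 CPM in the WT mice (0.21, SE 0.07, edgeR adjusted p = 0.27). Rrm2 had 76.6 and 89.7 CPM in Helios-deficient mice, against 70.9 and 70.5 CPM in the WT mice (0.24, SE 0.09, edgeR adjusted p = 0.28). For these 3 the genotypes did not overlap either. Dut (0.17, SE 0.06) and Mcm6 (0.17, SE 0.06) completed the 6, with edgeR adjusted p of 0.29 and 0.31.

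**Figure D4:**
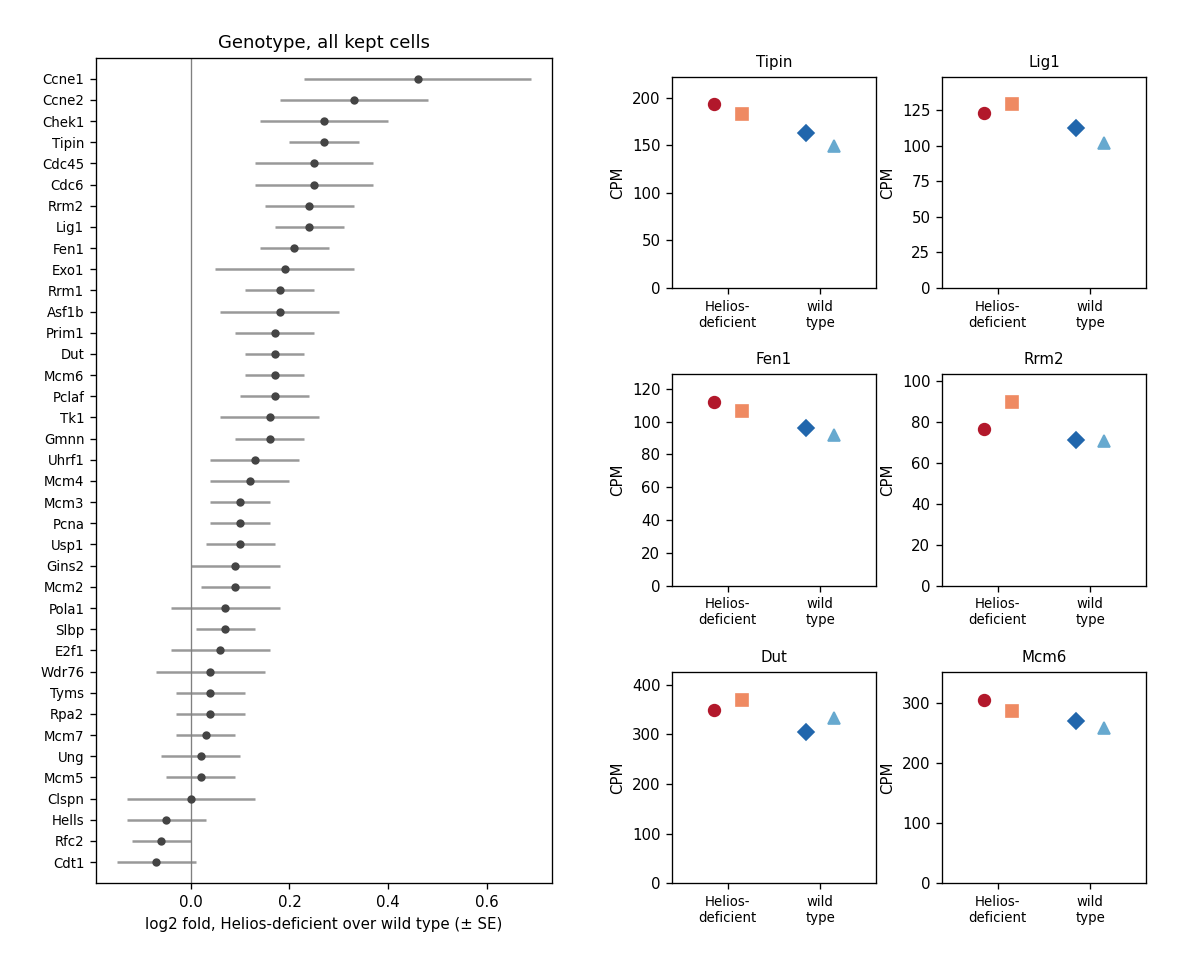
Left, log2 fold change of the 38 members between Helios-deficient and WT mice over all kept cells (x axis) with its standard error. Right, CPM per mouse (y axis from 0) of the 6 members with the smallest p, Helios-deficient at left and WT at right. Most points lie right of 0, up to 0.46 for Ccne1, and in the 6 panels the genotypes stand apart by less than a 1.5-fold change.

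With each mouse left out in turn, which leaves 1 mouse in a genotype, the members' median log2 fold change was 0.0898 to 0.129. That of Tipin was 0.21 to 0.33. The makeup of the cells moved with genotype: CD48-high cells made up 27.5% and 29.9% of the cells of the Helios-deficient mice and 35.5% and 37.3% of those of the WT mice. With equal numbers of cells of each CD48 class drawn in every mouse, the members' median was 0.20, and edgeR called 2 members higher (0.751% of 11049 genes). Without cells that held macrophage or B cell transcripts it called 0, with a median of 0.11. Unadjusted p was then under 0.05 for 10 members, as for 1182 of 11448 genes.

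Within CD48 classes the median log2 fold change of the members between genotypes was 0.062, 0.23 and 0.21 in CD48-low, CD48-mid and CD48-high cells. It was positive for 26, 34 and 37 members, beside 49.4%, 49.9% and 49.4% of the genes tested. edgeR called 0, 2 and 0 of them, beside 0.735%, 0.925% and 0.675% of the genes tested. Both called members were in CD48-mid cells. Mcm6 had 298 and 297 CPM there in the Helios-deficient mice and 252 and 219 CPM in the WT mice (0.34, SE 0.08, edgeR adjusted p = 0.010). Tipin had 175 and 179 CPM in Helios-deficient mice, against 145 and 124 CPM in the WT mice (0.40, SE 0.09, edgeR adjusted p = 0.011). The test of the difference itself, the interaction of genotype with CD48-high over CD48-low cells, called 0 members (of 10455 genes 0.297% were called higher and 0.507% in either direction). Its median was 0.14, with 4 members under an unadjusted p of 0.05, as were 804 of the 10455 genes. DESeq2 called 0 members, with 0 under an unadjusted p of 0.05 (0.0191% of genes called).

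The replicating share was compared between genotypes as well. Over all cells it was 29.0% and 30.5% in Helios-deficient mice, against 26.1% and 25.2% in the WT mice, without overlap. In CD48-low cells it was 15.4% and 15.0% in Helios-deficient mice, against 15.3% and 16.1% in the WT mice, with overlap. In CD48-mid cells it was 26.1% and 31.2% in Helios-deficient mice, against 20.4% and 19.2% in the WT mice, and in CD48-high cells 50.3% and 49.0% in Helios-deficient mice, against 40.5% and 37.1% in the WT mice. The rise in share across CD48 classes was thus 34.9 and 34.0 percentage points in Helios-deficient mice, against 25.2 and 20.9 points in the WT mice. These shares have an exact permutation p of 0.333, the smallest that 2 mice against 2 allow, except in CD48-low cells (exact p = 0.667).

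Other genes of the cell cycle were read from lists of 53 further replication genes, 49 G2 and M phase genes and 18 regulators of cycle entry and exit. Along CD48 the other replication genes behaved much like the members, with 47 of 53 higher and 0 lower by edgeR (median 0.77). E2f2, an activating E2F gene, had the largest difference of that list at 2.04 (SE 0.36), followed by E2f8 (1.54) and Mybl2 (1.45). The origin recognition genes Orc4 (0.043) and Orc5 (−0.16) did not pass. All 49 G2 and M phase genes were higher in CD48-high cells (median 1.18), led by the spindle checkpoint kinase gene Bub1 (1.72), then Aurkb (1.67) and Kif11. In the stem gate 32 of the 49 were lower (median −0.71), beside 18 of the 38 members (median −0.27) and 10 of 53 other replication genes (median −0.25), and the difference between the lists was not tested.

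The regulators went both ways. Along CD48, 9 of 18 were higher and 6 lower. Cdkn1c, the inhibitor p57, was the lowest at −2.79 (SE 0.15), followed by E2f5 (−0.82), Rbl2 (−0.74) and Ccnd2 (−0.53). The highest were Cdkn1a, the inhibitor p21, at 1.71 (SE 0.22), and Cdk6, a kinase of G1, at 1.05 (SE 0.061). In the stem gate Cdkn1c was higher at 2.36 (SE 0.14), while Cdkn1a (−2.19) and Cdk6 (−1.14) were lower. Between genotypes edgeR called 0 genes of these 3 lists, with medians of 0.12 for other replication genes, 0.24 for G2 and M phase genes and 0.056 for regulators. The smallest p among G2 and M phase genes were those of Nusap1 (0.42, edgeR adjusted p = 0.064), Birc5 (0.32, 0.065) and Ube2c (0.37, 0.066), and among regulators that of Cdkn1a (0.62, 0.091), then Cdkn1c (0.41, 0.17) and Cdkn1b (−0.37, 0.34). Of the other replication genes Dnmt1 (0.23, SE 0.078), Rad51ap1 (0.31, SE 0.11) and Ccna2 (0.36, SE 0.12) had the smallest p, with edgeR adjusted p of 0.23, 0.25 and 0.26.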

How the data were processed

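RNA, antibody tags and hashtags of LSK cells from 2 mice labelled Helios-deficient and 2 WT mice were deposited by the authors as raw UMI counts. Per the submitters' processing notes, the tools were Seurat 3.0.0 and Cell Ranger (version not given there) and the build mm10. The header of the count matrix gives software version 3.0.2. Deposited tables gave hashtag calls (3842 single, 231 doublets, 35 without) and the 3470 kept barcodes, whose filter is not stated. Doublets within a mouse were not called here.

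UMI counts were summed per mouse and class and tested with edgeR 4.0.16 in R 4.3.3 (robust quasi-likelihood test, TMM, default count filter) over all genes, with Benjamini-Hochberg adjustment at 0.05. The mouse was a block where classes of the same mice were compared. Standard errors are the absolute log2 fold change over the square root of F. DESeq2 1.42.0 was an alternative. CPM is scaled to a total of 1000000 UMIs of the summed cells.

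States and shares used cells thinned to 4000 UMIs. Testing on simulated counts with 100 genes changed 1.5-fold and 100 changed 2-fold recovered 82 and 99 of them between genotypes, with 6 false calls over 11592 genes, and 80 and 99 along CD48, with 12 over 9904. The changed genes were drawn from the more abundant ones, and the simulated dispersion was the trend over abundance, not that of each gene. P-values measure the spread between 4 mice of 1 run.

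The members, lists and rules were chosen with earlier results of these data known. Values per mouse were given for the 6 members with the smallest genotype p, the 4 largest and 4 smallest CD48 differences, both ends of the S order, the 2 with most UMIs, and members whose calls differed between tags, gate or branch. Of the S order, the 4 at each end under the division into 4 classes were named. Other-list genes were the 3 with the smallest genotype p or largest CD48 difference, and the remaining ones named from those lists were chosen after their values were seen. Promoter sequences came from RefSeq (GRCm38.p6).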

Additional observations from a re-analysis of the deposited data

Results flagged for a closer look

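In 2 of 23 sets of 4 mice, 1 value stood apart from the other 3 by Dixon's test at 95%, where chance flags about 1 in 20. The stem gate log2 ratio of Pola1 was −0.407 in Helios-deficient mouse 1, against −0.803, −0.780 and −0.752 in the others. The late over early log2 ratio of Tk1 was 3.78 in Helios-deficient mouse 1, against 2.17 in Helios-deficient mouse 2 and 2.08 and 1.88 in the WT mice, and its early class held 3 UMIs of Tk1 in that mouse.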

How the results depend on the processing

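The CD48 result held under every alternative run, with 36 to 38 members called higher. Between genotypes the count of 0 members called higher became 1 with no count filter, 2 with equal CD48 classes, and 0 to 7 with 1 mouse left out. The interaction of genotype with CD48 called 0 members higher under every alternative run, and 1 lower with tag shares, where its median was −0.032.

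Calls for CD150, CD135, the stem gate and the branch moved with the setting, and the cause was not tested. For CD150 (6 higher) DESeq2 and the fit with no replicate block each gave 1, tag shares 0 and leaving out 1 mouse 3 to 9. With tag shares the median was −0.60, and the log2 fold changes were −0.50 for Dut, −0.42 for Slbp, −0.68 for Lig1, −0.72 for Rrm1, −0.49 for Asf1b and −0.75 for Tk1. For CD135 (4 higher) DESeq2, no replicate block and tag shares gave 0, classes set within each mouse 2, and leaving out 1 mouse 1 to 6. With tag shares the median was −0.76, with Mcm6 at −0.56, Exo1 at −1.06, Mcm7 at −0.72 and Rrm2 at −1.41. For the stem gate (18 lower) the count was 5 with DESeq2, 11 with no replicate block, 35 with tag shares, 10 with thinned sums and 11 to 15 without 1 mouse. For the Elane branch (6 higher) it was 1 with DESeq2, 12 with no replicate block, 2 with thinned sums, 3 at 4 UMIs, 31 with Mpo, and 0 to 12 without 1 mouse, where 0 came without Helios-deficient mouse 2.

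Mcm6 and Mcm5, early under the 4 classes, stood at 0.21 and 0.085 under the planned S order rule. Under that rule Mcm3 turned to 0.03 and Mcm2 to 0.06 at 3000 UMIs per cell, and Mcm2 to 0.09 with a larger class of replicating cells and to 0.16 without Helios-deficient mouse 2, from −0.40 to 0.16 over the mice left out in turn. At other limits the replicating share stayed higher in the Helios-deficient mice: 48.6% and 48.9% against 42.0% and 44.0% in WT at 10 UMIs, 12.7% and 14.3% against 12.1% and 10.2% at 30 UMIs, and 51.2% and 49.5% against 42.0% and 44.3% without thinning. No paired analysis was possible between genotypes because the labels give hashtags and no numbers shared between genotypes. Low counts limit Ccne1 and the ends of the S order.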
